A study of Mus musculus with 57 samples.

Results

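Genes of the neutrophil programme were followed across mouse livers injured by 7 toxicants. The set holds 10 genes, named by symbol and not by their values: S100a8, S100a9, Retnlg, Ngp, Camp, Ltf, Mmp8, Mmp9, Cxcr2 and Csf3r. Each was found once, as 10 of the 54307 gene IDs in the table. Bulk RNA-seq had been run on 57 livers of wild-type male C57BL/6JJcl mice, in a study that tests how well cell-type proportions can be estimated from whole tissue. The mice were 6 weeks old, acclimatised for 1 week, fasted for 12 h and dosed, and their livers were perfused and sampled 24 h later. By gavage, 4 mice received alpha-naphthyl isothiocyanate (ANIT), 6 acetaminophen (APAP), 7 methylene dianiline (MDA), 5 thioacetamide (TAA) and 13 the vehicle, 0.5% methylcellulose. By the intraperitoneal route, 7 mice received carbon tetrachloride (CCl4), 4 galactosamine (GAL) and 2 received 0.9% saline. By the tail vein, 7 mice received the plant lectin concanavalin A (ConA) and 2 received 0.9% saline. Every compound was set against the vehicle of its own route and against all 17 vehicle mice together, so that comparisons of one route share their controls. Corn oil is also named as a vehicle in the labels, and which compounds it carried is not given in the sources used here, nor are the doses of the compounds. For a compound dissolved in it, the compound and the oil cannot be told apart.

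Neutrophils are the most abundant short-lived phagocytes of the blood and enter the injured liver through its sinusoids, drawn by chemokines that bind Cxcr2. In the bone marrow they fill their granules in order: azurophil proteins such as myeloperoxidase come first, then the proteins of the specific granules (lactoferrin from Ltf, the cathelicidin from Camp, the neutrophilic granule protein from Ngp), and last those of the gelatinase granules. Messenger RNA for the specific granule proteins is abundant in marrow precursors and low in mature blood neutrophils, which carry the receptors Cxcr2 and Csf3r. S100a8 and S100a9 encode the subunits of calprotectin, a calcium-binding protein that makes up much of the neutrophil cytosol, and Retnlg encodes a resistin-like secreted protein.

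Library totals ranged from 13826343 to 35075809 estimated counts. Levels are given in CPM, the usual share of the library total, after TMM scaling over all 57 livers. The deposited values look corrected for gene length, so levels of different genes are set side by side per length. Against the library total alone, TMM moved the median of all genes, and fold changes below are relative to that median. With library totals in its place the median log2 change rose from 0.08 to 0.84 for GAL and from 0.10 to 0.53 for CCl4 against intraperitoneal saline, and fell from 0.03 to -0.56 for ConA against intravenous saline. The share of calls that were higher moved with it, from 44.9% to 86.7% for GAL, from 53.6% to 80.6% for CCl4, from 49.3% to 22.7% for ConA, from 49.5% to 23.7% for ANIT and from 54.3% to 72.5% for APAP. No called member changed its direction with the scaling. The labels number the livers within each group and p-values measure the spread between these livers.

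The sequences just upstream of 5 members are printed because these genes differ most between the ConA and TAA livers: the medians of Ngp and Camp were highest after ConA, those of Mmp8, Cxcr2 and Csf3r after TAA. Each is the 250 bases before the annotated start, 5′ to 3′ on the gene's own strand, from RefSeq in build GRCm38.p6, which differs from the build of the counts. They lie at chr9:110419558-110419807 (+ strand) for Ngp, chr9:109849457-109849706 (- strand) for Camp, chr9:7558179-7558428 (+ strand) for Mmp8, chr1:74153744-74153993 (+ strand) for Cxcr2 and chr4:126024409-126024658 (+ strand) for Csf3r. Capitals mark matches, on either strand, to the letters TTNNGNAA, a form of the site of C/EBP factors, or GAGGAA, the core of the PU.1 site. These are families of factors known for myeloid genes.
Ngp: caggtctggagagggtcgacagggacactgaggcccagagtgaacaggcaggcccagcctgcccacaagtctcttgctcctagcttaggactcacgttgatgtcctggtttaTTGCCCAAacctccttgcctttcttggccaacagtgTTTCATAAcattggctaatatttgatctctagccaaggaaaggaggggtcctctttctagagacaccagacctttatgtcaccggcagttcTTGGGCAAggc
Camp: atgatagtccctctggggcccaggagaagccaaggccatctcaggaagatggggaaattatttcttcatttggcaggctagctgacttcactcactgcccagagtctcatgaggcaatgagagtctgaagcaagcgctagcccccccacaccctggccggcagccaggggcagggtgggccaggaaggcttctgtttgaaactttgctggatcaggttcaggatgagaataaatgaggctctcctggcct
Mmp8: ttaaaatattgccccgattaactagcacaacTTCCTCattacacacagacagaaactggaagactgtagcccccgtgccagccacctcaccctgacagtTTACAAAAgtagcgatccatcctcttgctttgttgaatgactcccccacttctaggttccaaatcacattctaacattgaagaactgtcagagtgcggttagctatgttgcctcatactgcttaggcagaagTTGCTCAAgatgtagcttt
Cxcr2: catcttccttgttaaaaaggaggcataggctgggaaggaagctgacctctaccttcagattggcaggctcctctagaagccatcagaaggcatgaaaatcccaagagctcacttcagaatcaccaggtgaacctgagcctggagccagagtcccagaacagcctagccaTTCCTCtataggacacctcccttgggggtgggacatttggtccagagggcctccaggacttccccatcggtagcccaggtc
Csf3r: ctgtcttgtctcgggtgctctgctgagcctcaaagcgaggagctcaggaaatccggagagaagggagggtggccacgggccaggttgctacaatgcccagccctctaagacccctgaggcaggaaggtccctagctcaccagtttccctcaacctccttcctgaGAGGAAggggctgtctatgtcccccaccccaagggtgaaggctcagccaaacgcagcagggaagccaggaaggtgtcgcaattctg
Among the 9 members with a RefSeq promoter in the table, the C/EBP-type letters were found 3 times before Ngp, 2 times each before S100a9, Ltf and Mmp8, 1 time each before S100a8 and Retnlg, and 0 times before Camp, Cxcr2 and Csf3r. The PU.1-type letters were found 2 times before S100a8 and 1 time each before Ltf, Mmp8, Cxcr2 and Csf3r, and no match overlapped another. In the 32817 mouse promoters of this length, 36.8% held the first pattern and 23.3% the second. Mmp9 was not matched. Of the granule genes, Ngp, Camp, Ltf and Mmp8 all lie on chromosome 9.

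More members were called higher after TAA and ConA than after the other compounds. A gene is called where edgeR's quasi-likelihood test, adjusted over all genes by Benjamini-Hochberg, gave an adjusted p under 0.05. Against the gavage vehicle, TAA raised 9 of the 10 members and the tenth, Camp, was too low to test, beside 26.4% of all genes called higher. APAP raised 3 members (17.3% of all genes), MDA 2 (17.4%) and ANIT 1 (14.0%). In those 3 comparisons 5 members passed the filter on low counts, and Ngp, Camp, Ltf, Mmp8 and Cxcr2 did not. Against intraperitoneal saline, CCl4 raised 4 of the 8 members tested, S100a8, S100a9, Mmp8 and Mmp9 (18.0%), and GAL 5 of the 7 tested (12.8%). Against intravenous saline, ConA raised 6 of the 8 tested (16.8%), with Mmp8 and Cxcr2 not tested. Ngp, Ltf, Mmp8 and Cxcr2 passed that filter in the TAA comparison and not in those of the other gavage compounds, so the number tested itself depends on the treated level and the counts of calls are a description. Bulk tissue cannot tell a change in the number of neutrophils from a change in RNA per neutrophil.

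Against all 17 vehicle mice TAA again had the highest count. It raised 9 members (25.2% of all genes called higher), ConA 7 (34.3%), APAP 4 (18.1%), MDA 3 (17.2%), CCl4 3 (26.2%), GAL 2 (25.1%) and ANIT 1 (13.5%). In this comparison ConA also lowered 1 member, Csf3r, beside 33.7% of all genes called lower. Each saline group holds 2 mice, so most of the spread in those fits comes from the treated mice. For GAL the share of members called against all vehicle mice, 2 of 7 tested, is near the share of all genes. That count varied with the setting: it was 7 under library-total scaling (54.7% of all genes), which raised the median log2 change of all genes from 0.01 to 0.84. It was 5 with gavage mice 15 to 18 left out (25.3%), 5 with a covariate for the range of the replicate number (26.7%), 1 by DESeq2 (26.3%) and 1 without GAL mouse 4 (22.9%) or 8 (23.9%).

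**Figure D1:**
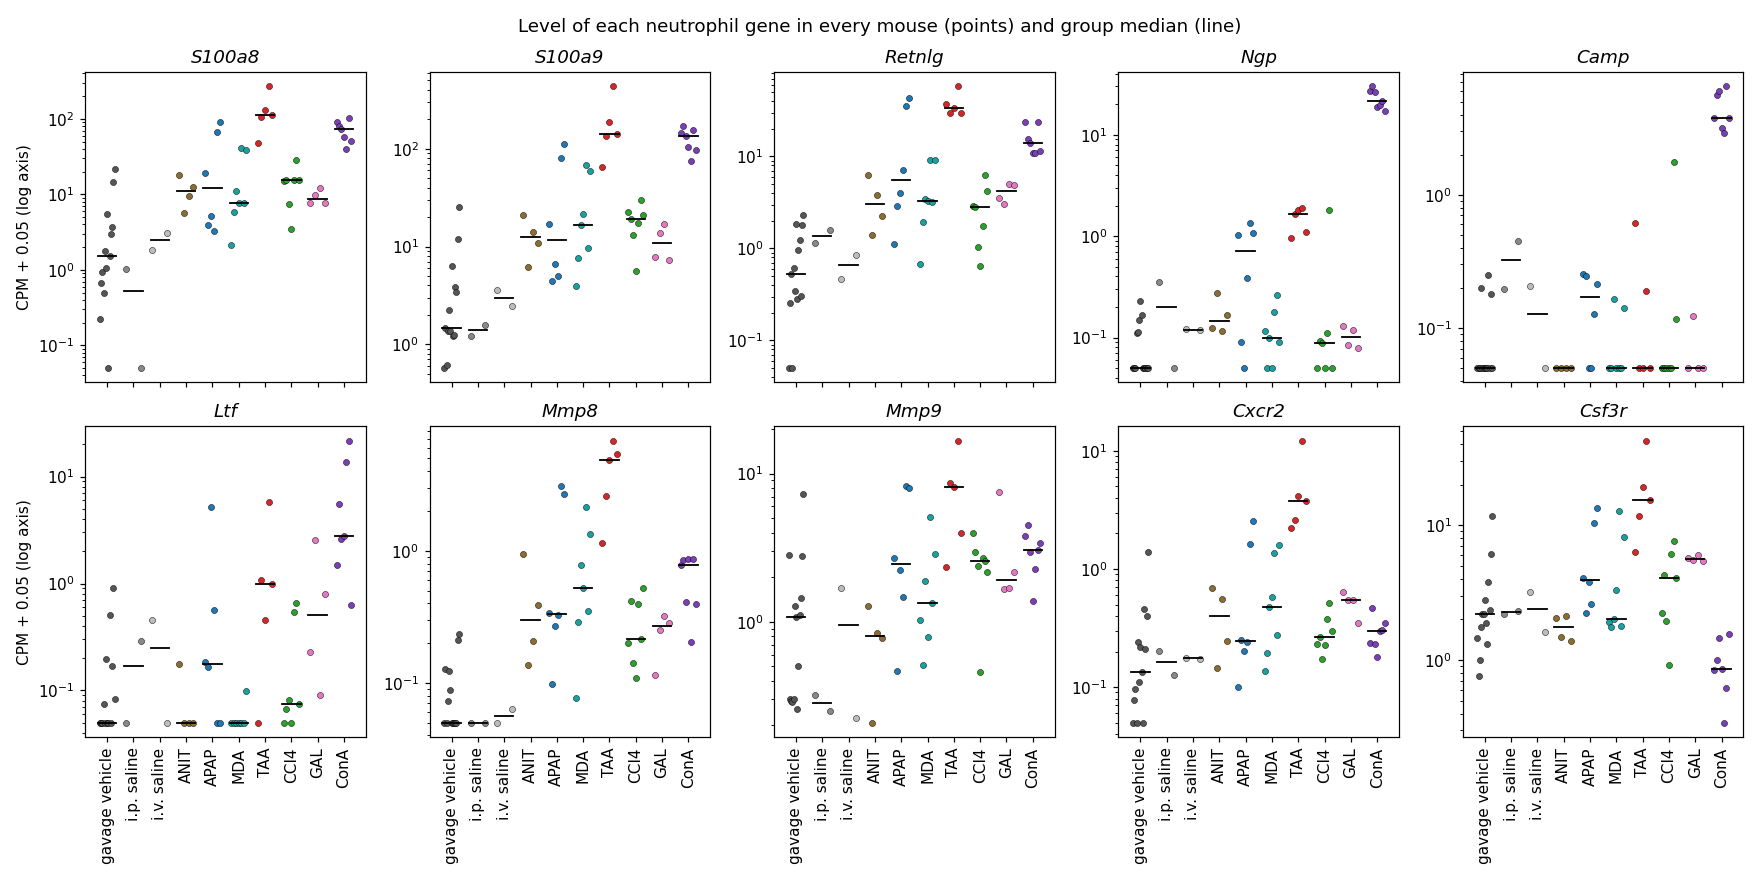
Level of each of the 10 genes in every liver, in CPM plus 0.05 on a log axis, with 1 point per mouse and a line at the group median. ConA mice stand alone at the top for Ngp and Camp, TAA mice have the highest medians for Retnlg, Mmp8, Cxcr2 and Csf3r, and the gavage vehicle mice spread from 0.521 to 25.4 CPM for S100a9.

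S100a9, one of the calprotectin genes, stood at 64.9, 136, 188, 439 and 142 CPM in the 5 TAA livers and at 74.8 to 171 CPM (median 136) in the 7 ConA livers. In the gavage vehicle it ranged from 0.521 to 25.4 CPM (median 1.42), in the saline mice from 1.16 to 3.50. Every TAA and every ConA mouse lay above all 17 vehicle mice, and the TAA and ConA ranges overlap. The log2 fold change was 5.41 ± 0.72 (SE) for TAA against the gavage vehicle (adjusted p = 4.4e-06) and 5.48 ± 0.48 for ConA against intravenous saline (adjusted p = 5.4e-05). S100a8, its partner, stood at 48.2, 107, 129, 273 and 114 CPM after TAA and at 39.8 to 104 CPM (median 72.7) after ConA, against 0 to 21.4 CPM over the vehicle mice. Its log2 fold changes were 5.03 ± 0.84 (adjusted p = 5.7e-05) and 4.93 ± 0.52 (adjusted p = 1.2e-04). Again no TAA or ConA mouse overlapped the vehicle mice. Against all vehicle mice every TAA mouse lay above every control in 6 members and every ConA mouse in 5, beside 8.67% and 11.7% of all genes.

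After the other 5 compounds the group medians of S100a9 lay between these and the controls. S100a9 stood at 20.9, 6.15, 14.1 and 10.9 CPM after ANIT, which overlaps the gavage vehicle, and the log2 fold change of 1.48 ± 0.77 was not called (adjusted p = 0.16). After MDA it ranged from 3.88 to 68.0 CPM (median 16.5), and the log2 fold change was 2.53 ± 0.68 (adjusted p = 0.0069). After APAP it ranged from 4.34 to 111 CPM (median 11.7), with a value of 3.06 ± 0.79 (adjusted p = 0.0056). In the MDA group and in the APAP group 2 mice lay above all gavage vehicle mice, and in the ANIT group 0 did. CCl4 mice ranged from 5.56 to 30.0 CPM (median 19.3) and GAL mice stood at 7.81, 13.7, 17.2 and 7.20 CPM. All of them lay above both intraperitoneal saline mice, at 1.16 and 1.53 CPM, with log2 fold changes of 3.84 ± 0.63 (adjusted p = 0.0014) and 3.13 ± 0.50 (adjusted p = 0.0077). The GAL call was lost without saline mouse 7 (2.99) or 8 (3.26), and the S100a8 call after GAL (3.99 ± 0.94, adjusted p = 0.024) without GAL mouse 4 (3.98) or 8 (4.10). Without saline mouse 7 the fitted S100a8 value after GAL was 11.0 and still called. Against all 17 vehicle mice, whose upper range reaches 25.4 CPM, the CCl4 value fell to 2.15 ± 0.55 (adjusted p = 0.0018) and the GAL value to 1.47 ± 0.70, which was not called (adjusted p = 0.084). By median level S100a9 ran from TAA and ConA to CCl4, MDA, ANIT, APAP and GAL, and every neighbouring pair in that order overlapped except ConA and CCl4.

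Retnlg was called higher after each of the 7 compounds against all vehicle mice. It stood at 36.9, 29.7, 33.4, 58.2 and 29.3 CPM after TAA, at 10.9 to 23.8 CPM (median 13.9) after ConA, and at 0 to 2.27 CPM over the vehicle mice. All TAA mice lay above all ConA mice, but the difference between the groups, a log2 value of -1.26 ± 0.65 for ConA over TAA, was not called (adjusted p = 0.14). Against its route vehicle the log2 fold change was 5.63 ± 0.56 for TAA (adjusted p = 9.6e-08) and 4.72 ± 0.55 for ConA (adjusted p = 2.0e-04). Retnlg was also the single member called after ANIT, at 6.17, 1.34, 3.80 and 2.19 CPM, with a log2 fold change of 2.12 ± 0.71 (adjusted p = 0.033). That call was lost without ANIT mouse 1 (1.67) or mouse 3 (2.06), and the one against all vehicle mice (2.05 ± 0.63, adjusted p = 0.019) likewise (1.60 and 1.99). It was called after APAP (4.38 ± 0.73, adjusted p = 1.4e-04), where 5 of 6 mice lay above every vehicle mouse, and after MDA (2.51 ± 0.60, adjusted p = 0.0026), where 5 of 7 did. GAL mice stood at 3.49, 2.99, 4.95 and 4.81 CPM, all above all 17 vehicle mice, with a log2 fold change of 2.29 ± 0.60 against them (adjusted p = 0.0025). The GAL value against intraperitoneal saline, 1.66 ± 0.35 (adjusted p = 0.017), was not called without saline mouse 7 (1.49) or 8 (1.83).

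**Figure D2:**
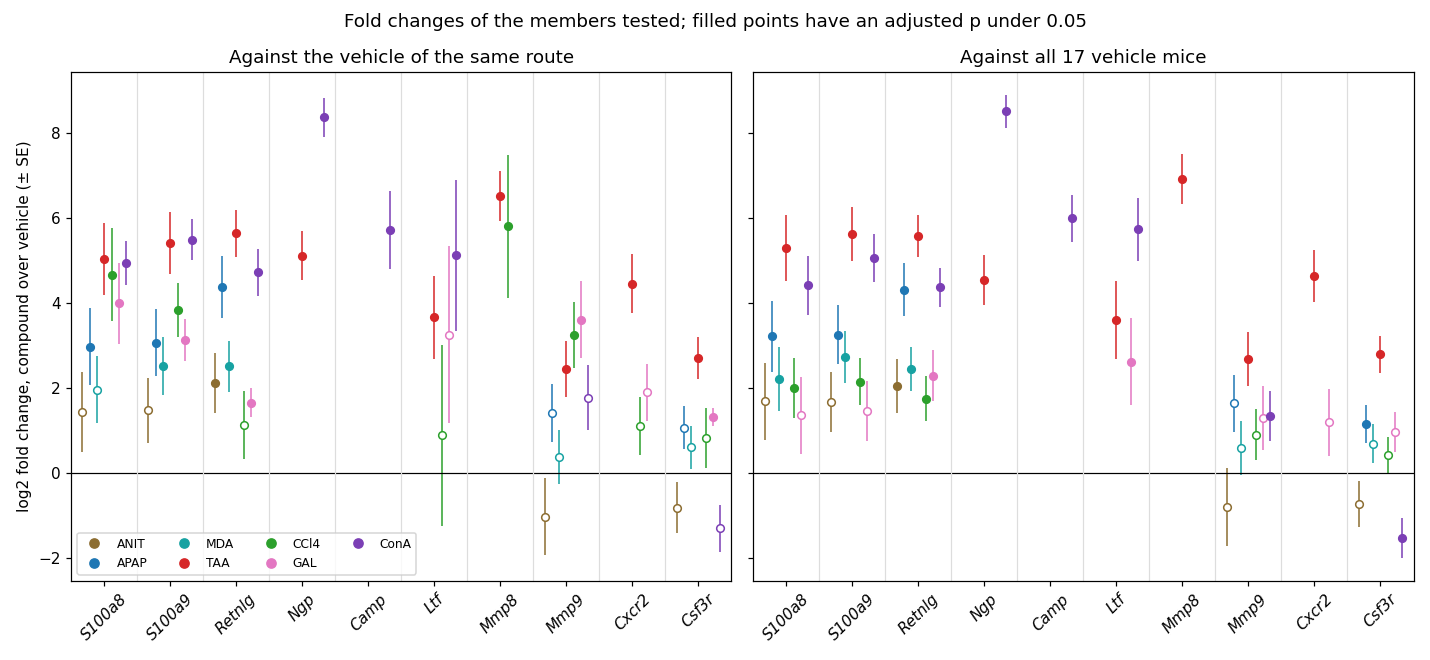
Log2 fold change of each member tested, compound over vehicle, with its SE; the left panel uses the vehicle of the same route and the right panel all 17 vehicle mice. Filled points have an adjusted p under 0.05, ConA reaches 8.50 for Ngp against all vehicle mice, and its Csf3r point is the single filled one below 0.

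The granule genes Ngp and Camp set ConA apart from every other compound. Ngp, a cathelicidin-related granule protein, ranged from 17.1 to 30.2 CPM (median 21.5) in the ConA mice and stood at 0.899, 1.61, 1.75, 1.83 and 1.06 CPM in the TAA mice. Over all 17 vehicle mice it ranged from 0 to 0.303 CPM with a median of 0. Each ConA mouse was above each TAA mouse, and each TAA mouse above each vehicle mouse. The log2 fold change for ConA was 8.50 ± 0.39 against all vehicle mice (adjusted p = 8.0e-16). Against intravenous saline it was 8.36 ± 0.46 (adjusted p = 6.8e-06), a value that depends on the prior count of the fit, since both saline mice held at most 3 estimated counts. TAA gave 5.11 ± 0.58 against the gavage vehicle (adjusted p = 6.4e-07). Elsewhere Ngp was low: the medians were 0.0954 CPM after ANIT, 0.0494 after MDA, 0.0386 after CCl4 and 0.0516 after GAL. APAP mice 1, 8 and 11 stood at 0.984, 1.30 and 1.03 CPM and the others at 0 to 0.340. Some markers of other granulocytes, picked out after their values were seen, were also high after ConA. Prg2, the eosinophil major basic protein gene, ranged from 3.30 to 7.42 CPM after ConA, from 0 to 0.209 CPM after TAA and from 0 to 0.856 CPM over the vehicle mice (5.60 ± 0.69 for ConA against all vehicle mice, adjusted p = 8.2e-08). Ear2, of the same list, had a median of 2.16 CPM after ConA and 6.73 CPM over the vehicle mice and fell (-1.20 ± 0.34, adjusted p = 0.0029), and Siglecf was at 0 in 6 of 7 ConA mice and in 2 of 17 vehicle mice. The 6 eosinophil markers together summed to 6.62 to 12.0 CPM after ConA and 1.76 to 10.8 CPM in the vehicle mice. The 5 basophil and mast cell markers summed to 0.396 to 1.77 CPM after ConA, 0 to 0.0308 CPM after TAA and 0 to 0.767 CPM in the vehicle mice. Among them Prss34 ranged from 0.305 to 1.07 CPM after ConA and reached 0.123 CPM in the vehicle mice, and Mcpt8 was above 0 in 6 of 7 ConA mice and at 0 in all vehicle mice. Their part in the Ngp and Camp values was not tested.

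Camp, which encodes the cathelicidin antimicrobial peptide, ranged from 2.86 to 6.50 CPM (median 3.72) after ConA. It was at 0 in 33 of the 57 mice, in all 4 ANIT mice and in 3 of 5 TAA mice, and reached 0.400 CPM at most over the vehicle mice. No ConA mouse overlapped any vehicle mouse, and the log2 fold change was 5.99 ± 0.56 against all vehicle mice (adjusted p = 6.5e-10) and 5.71 ± 0.91 against intravenous saline (adjusted p = 0.0012). Without saline mouse 7 the second value was 9.12. Outside ConA the highest Camp value was 1.71 CPM, in CCl4 mouse 11, the mouse that also held the highest Ngp value of its group, 1.74 CPM. In the other 6 CCl4 mice Ngp reached 0.0614 CPM and Camp 0.0658 CPM.

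Ltf, the lactoferrin gene, was higher after ConA and TAA but followed Ngp loosely. It ranged from 0.573 to 21.7 CPM (median 2.74) after ConA and stood at 0, 1.04, 0.404, 5.73 and 0.943 CPM after TAA, against 0 to 0.860 CPM over the vehicle mice. The ConA mice with most Ltf, numbers 8 and 11, held 13.7 and 21.7 CPM, and the ConA mouse with most Ngp, number 3, held 5.47. The log2 fold change was 5.73 ± 0.74 for ConA against all vehicle mice (adjusted p = 1.8e-07) and 5.12 ± 1.78 against intravenous saline (adjusted p = 0.047). The second call was lost in 7 of 9 fits that left out a mouse: without ConA mouse 3 (5.16), 4 (5.27), 5 (5.26), 8 (4.88) or 11 (4.46), or saline mouse 7 (9.73) or 8 (4.13). TAA gave 3.66 ± 0.97 (adjusted p = 0.0038), no longer called without TAA mouse 7 (2.24), and against all vehicle mice the call was lost without the same mouse (2.18). Single mice of other groups held Ltf without Ngp. APAP mouse 4 had 5.18 CPM of Ltf and 0 of Ngp, and GAL mouse 4 had 2.48 CPM of Ltf and 0.0349 of Ngp. The GAL call against all vehicle mice, 2.63 ± 1.01 (adjusted p = 0.033), was lost without that mouse (1.28). Within groups, over the 57 mice with group means subtracted, log2 Ltf and log2 Ngp had a Pearson's r of -0.05, beside 0.54 for Ngp and Camp and 0.96 for S100a8 and S100a9.

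Mmp8, the neutrophil collagenase that is stored in granules, did not share the pattern of Ngp and Camp. It stood at 1.09, 2.56, 4.83, 6.77 and 5.36 CPM after TAA and at 0.155 to 0.823 CPM (median 0.724) after ConA. The vehicle mice ranged from 0 to 0.185 CPM and 10 of 17 were at 0. All TAA mice lay above all ConA mice and all vehicle mice. The log2 fold change for TAA was 6.52 ± 0.59 (adjusted p = 3.3e-08). For ConA the gene was too low to test, with 6 of 7 mice above every vehicle mouse. In CCl4 mice Mmp8 ranged from 0.0588 to 0.475 CPM (median 0.165) while both intraperitoneal saline mice were at 0. Set against 3 estimated counts in each saline mouse, the CCl4 mean was at least 1.45-fold higher, and the call (adjusted p = 0.028) was lost without either saline mouse, at fitted log2 values, which depend on the prior count, of 5.76 without mouse 7 and 5.89 without mouse 8. MDA mice 7 and 12 held 2.10 and 1.29 CPM and APAP mice 8 and 11 held 3.02 and 2.62 CPM, the highest of their groups.

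Mmp9, gelatinase B, is made by neutrophils and by other cells, and its vehicle levels were spread. It ranged from 0.208 to 7.22 CPM (median 1.02) in the gavage vehicle and stood at 2.28, 8.62, 8.05, 16.7 and 3.94 CPM after TAA. These ranges overlap, and the log2 fold change was 2.45 ± 0.66 (adjusted p = 0.0043). After ConA it ranged from 1.34 to 4.43 CPM (median 3.00), with 1.77 ± 0.76 against intravenous saline (adjusted p = 0.098) and 1.35 ± 0.59 against all vehicle mice (adjusted p = 0.045). That second call was lost without ConA mouse 2 (1.27), 3 (1.21), 4 (1.34), 8 (1.40), 11 (1.33) or 12 (1.32), and the first value became a call without saline mouse 7 (4.25). CCl4 mice held 0.405 to 3.94 CPM (median 2.51) and GAL mice 7.48, 1.62, 1.63 and 2.12 CPM, all above the saline mice at 0.272 and 0.199. The log2 fold changes were 3.25 ± 0.77 (adjusted p = 0.010) and 3.61 ± 0.91 (adjusted p = 0.029). Both calls were lost without either saline mouse, at 3.37 (mouse 7) and 3.18 (mouse 8) for CCl4 and at 3.78 and 3.51 for GAL, and the GAL call also without GAL mouse 8 (3.76). Against all 17 vehicle mice neither was called.

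Cxcr2, the receptor for the chemokines of the Cxcl1 family, stood at 2.17, 2.53, 4.07, 12.2 and 3.74 CPM after TAA. All 5 mice lay above the vehicle mice, which ranged from 0 to 1.34 CPM. The log2 fold change was 4.45 ± 0.69 (adjusted p = 2.5e-05). After ConA Cxcr2 ranged from 0.129 to 0.415 CPM (median 0.247), inside the vehicle range, and was too low to test. MDA mice 7 and 12 (1.30 and 1.55 CPM) and APAP mice 8 and 11 (1.58 and 2.47 CPM) were again the highest of their groups. GAL mice stood at 0.582, 0.499, 0.493 and 0.301 CPM, all above the intraperitoneal saline mice at 0.153 and 0.0756, and the log2 fold change of 1.90 ± 0.66 was not called (adjusted p = 0.075).

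Csf3r, the receptor for the granulocyte growth factor G-CSF, rose after TAA and, against all vehicle mice, fell after ConA. It stood at 6.24, 11.7, 19.1, 42.4 and 15.4 CPM after TAA, at 0.292 to 1.51 CPM (median 0.809) after ConA and at 0.713 to 11.7 CPM (median 2.15) over the vehicle mice. All TAA mice lay above all ConA mice, 4 of 5 TAA mice lay above all vehicle mice, and the ConA mice overlapped the vehicle mice. TAA gave a log2 fold change of 2.71 ± 0.50 (adjusted p = 1.6e-04). ConA gave -1.51 ± 0.47 against all vehicle mice (adjusted p = 0.0058) and -1.30 ± 0.55 against intravenous saline, where Csf3r stood at 3.13 and 1.55 CPM, which was not called (adjusted p = 0.094). Without saline mouse 7 the second value was -0.66. All 7 ConA mice lay below both of those saline mice, a pattern that 21.4% of all genes showed. GAL mice held 5.66, 5.51, 5.94 and 5.39 CPM, all above the saline mice at 2.15 and 2.27, with a log2 fold change of 1.33 ± 0.21 (adjusted p = 0.0077). That call was lost without saline mouse 8 (1.32). Over the same livers, all 6 Kupffer cell markers fell after ConA against either control. Against all vehicle mice 33.7% of all genes were called lower. Against intravenous saline 16.8% of all genes were called higher, which was 49.3% of the calls there. The 6 markers summed to 158 to 470 CPM in the vehicle mice and to 24.2 to 52.1 CPM after ConA. None of the 6 was at 0 in every mouse. Monocyte markers summed to 53.1 to 93.9 CPM after ConA and 32.5 to 114 CPM in the vehicle mice, but the 2 most abundant, picked out after their values were seen, moved in opposite directions against all vehicle mice. Csf1r fell from 21.9 to 85.9 CPM over the vehicle mice to 2.41 to 6.64 CPM after ConA (-3.59 ± 0.30 against all vehicle mice, adjusted p = 9.7e-11). Plac8 had medians of 21.2 CPM over the vehicle mice and 57.2 CPM after ConA, with no overlap, and rose against all vehicle mice (1.39 ± 0.25, adjusted p = 2.3e-05) but was not called against intravenous saline (0.73 ± 0.26, adjusted p = 0.054). The part of these cells in the Csf3r value was not tested.

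ConA and TAA livers were then compared directly, as a contrast in the fit of all 10 groups that was added after the values had been seen. The 2 groups differ in route as well as compound, which cannot be told apart. ConA was higher in Ngp (log2 difference 3.99 ± 0.85, adjusted p = 2.9e-04) and Camp (5.12 ± 1.37, adjusted p = 0.0037), 2 of 10 members beside 10.5% of all genes. It was lower in Mmp8 (-2.86 ± 0.80, adjusted p = 0.0057), Cxcr2 (-4.29 ± 0.84, adjusted p = 9.2e-05) and Csf3r (-4.37 ± 0.62, adjusted p = 2.5e-07), 3 of 10 beside 16.7% of all genes. S100a8 (-0.92 ± 0.81), S100a9 (-0.62 ± 0.73), Retnlg, Ltf (2.07 ± 1.25) and Mmp9 (-1.40 ± 0.70) were not called. With each effect first taken against its own route vehicle, Csf3r alone was called (-4.02 ± 0.86, adjusted p = 0.0013; 5.94% of all genes called lower), and the values for Ngp (3.28 ± 1.74), Camp (4.23 ± 2.30) and Cxcr2 (-3.55 ± 1.33) were not, with adjusted p of 0.25, 0.26 and 0.083.

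Per length and relative to S100a9 in the same liver, the ConA and TAA mice also stood apart in Ngp, Csf3r, Cxcr2 and Mmp8. Ngp amounted to 13.7% to 26.4% of S100a9 (median 17.9%) in the ConA mice and 0.416% to 1.38% (median 0.928%) in the TAA mice. Csf3r amounted to 0.359% to 1.54% (median 0.549%) after ConA and 8.63% to 10.8% (median 9.66%) after TAA. Cxcr2 amounted to 0.124% to 0.330% after ConA and 1.86% to 3.34% after TAA, and Mmp8 to 0.207% to 0.791% and 1.54% to 3.77%. None of these 4 pairs of ranges overlap. Over the 17 vehicle mice, where Ngp was at 0 or near it, its ratio ran from 0% to 26.1% (median 0%) and reached into the ConA range. For Cxcr2 the ratio ran from 1.89% to 2.61% over the 7 MDA mice and from 1.55% to 3.60% over the 4 ANIT mice, which overlap the TAA range although the S100a9 medians were lower in those groups. For Csf3r the ratio was 11.9% to 47.9% after MDA, 34.6% to 74.9% after GAL, 12.0% to 56.9% after APAP and 43.7% to 271% over the vehicle mice, all above the TAA range, while ANIT (9.55% to 23.1%) and CCl4 (9.73% to 34.3%) overlapped it.

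**Figure D3:**
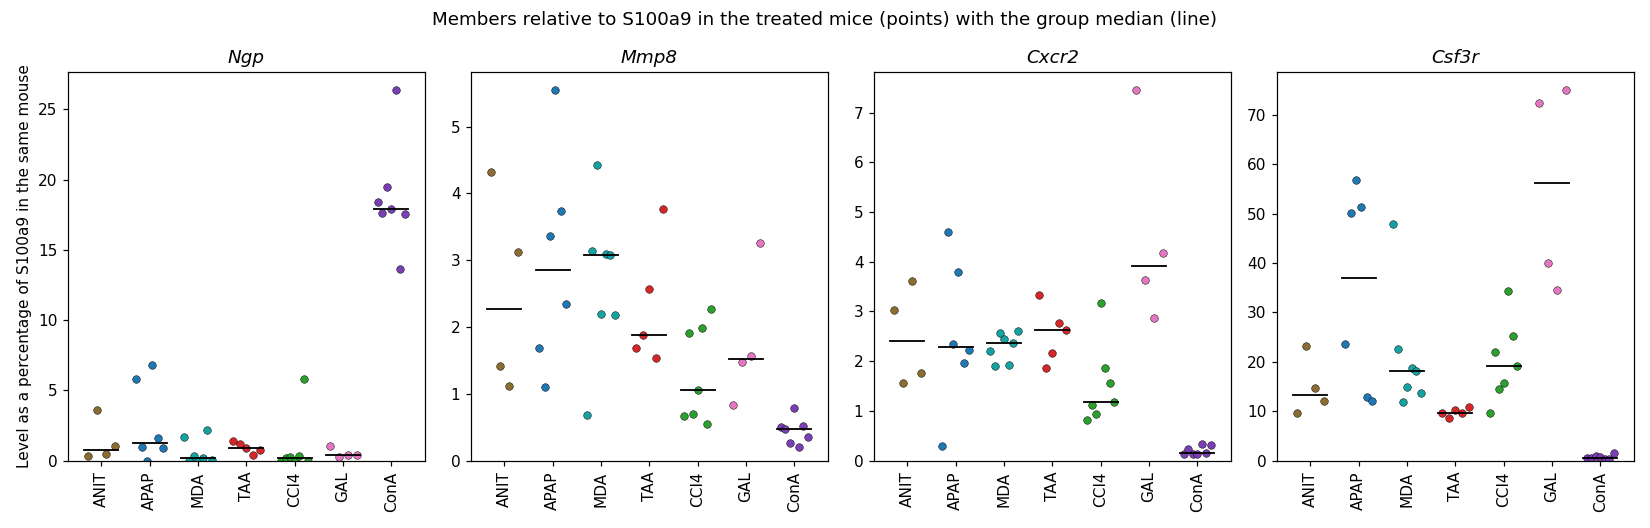
Ngp, Mmp8, Cxcr2 and Csf3r as a percentage of S100a9 in the same mouse, for the 40 treated mice, with a line at the group median. Among these, ConA mice are high for Ngp (13.7% to 26.4%) and low for Cxcr2 and Csf3r (at most 0.330% and 1.54%). The vehicle mice, not drawn, reach 26.1% for Ngp.

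Against the other 5 compounds, in contrasts added likewise, ConA was higher in Ngp and Camp in all 5 pairs and lower in Csf3r in 4 of them. The number of members called higher was 6 against ANIT (18.4% of all genes), 3 against APAP (16.0%), 6 against MDA (21.2%), 6 against CCl4 (22.0%) and 5 against GAL (20.4%). Beside Ngp and Camp these were S100a9 in all 5 pairs, S100a8 and Retnlg in all but the pair with APAP, and Ltf in those with ANIT, MDA and CCl4. The S100a9 call over APAP (1.75, adjusted p = 0.04996) was lost in 10 of 13 fits that left out a mouse, at 1.52 to 1.81. The call over ANIT was lost for S100a8 without ANIT mouse 2 (2.41), 3 (2.56) or 4 (2.68) and for Retnlg without ANIT mouse 2 (1.96) or 4 (2.06). The Retnlg call over GAL was lost without any 1 of the 4 GAL mice (1.82 to 2.04) or ConA mouse 2 (1.82) or 11 (1.81). Under library-total scaling S100a8 and Retnlg were not called in those 4 pairs (1.22 to 2.31 and 0.57 to 1.89), nor S100a9 over APAP (0.91) or MDA (1.58). The Ngp log2 difference ran from 5.21 ± 0.84 against APAP (adjusted p = 2.0e-06) to 8.76 ± 1.25 against GAL (adjusted p = 1.0e-07), fitted values that depend on the prior count where the other group is near 0. The Csf3r difference ran from -2.07 ± 0.56 against CCl4 (adjusted p = 0.0017) to -2.73 ± 0.58 against APAP (adjusted p = 1.5e-04), while against ANIT it was -0.89 ± 0.63 and not called (adjusted p = 0.27). In the pairs with APAP, MDA, CCl4 and GAL the member called lower was Csf3r, beside 23.7%, 25.3%, 27.4% and 23.7% of all genes.

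Granule and surface genes were summarised in each mouse as the mean log2(CPM + 1) of Ngp, Camp, Ltf and Mmp8 minus that of Cxcr2 and Csf3r. The difference was above 0 in all 7 ConA mice, from 1.02 to 2.70 (median 1.76), and below 0 in the 50 others. It ran from -2.73 to -1.60 (median -1.97) in the TAA mice, from -2.37 to -0.38 (median -0.77) in the vehicle mice and from -1.59 to -1.09 in the GAL mice. Medians were -0.72 for ANIT, -0.79 for APAP and -0.79 for MDA, and -0.90 for CCl4. In the ConA mice the granule mean ranged from 1.87 to 3.19 (median 2.47), above the 0.66 to 1.85 of the TAA mice and the 0 to 0.32 (median 0.07) of the vehicle mice. Their surface mean ranged from 0.34 to 0.85 (median 0.54), within the vehicle range (0.41 to 2.45, median 0.91) apart from its lowest mouse. With Mmp8 left out of the granule genes the medians became 2.38 for ConA and -2.47 for TAA.

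**Figure D4:**
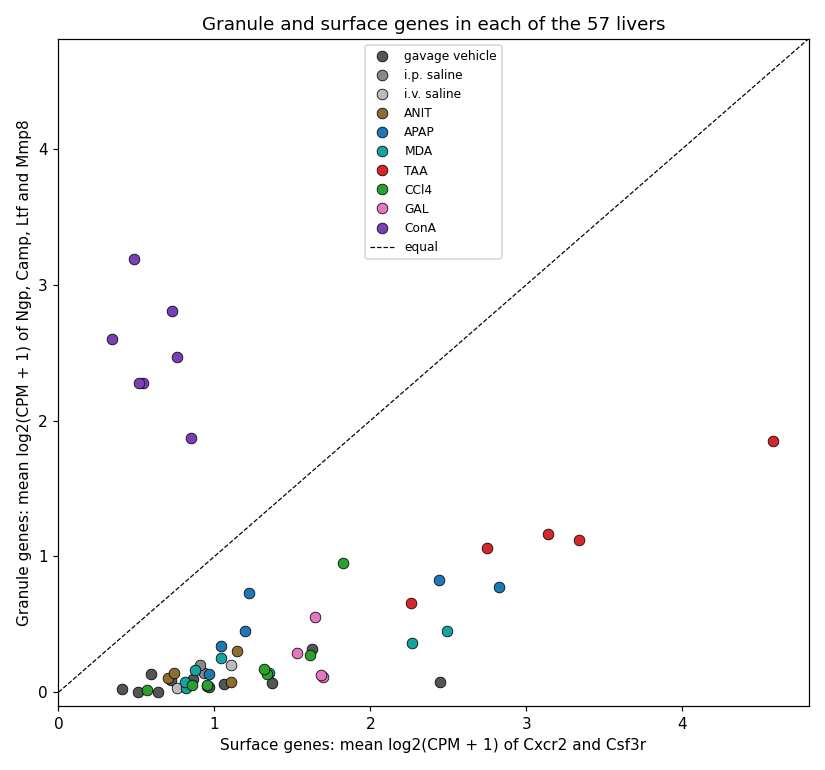
Mean log2(CPM + 1) of the 4 granule genes against that of the 2 surface genes, 1 point per mouse and 57 in all, with a dashed line where both are equal. The 7 ConA mice lie above the line and the 50 others below it, with the TAA mice at surface means of 2.26 to 4.58, a range that APAP mice 8 and 11, MDA mice 7 and 12 and 1 vehicle mouse also reach.

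Across the 57 mice, taken as a description since groups set most of the variation, Ngp followed Camp (Pearson's r of log2 levels 0.95) and not Cxcr2 (0.08) or Csf3r (-0.22). Mmp8 followed Cxcr2 (0.90) and Retnlg (0.83) more closely than Ngp (0.27) or Camp (0.05). With group means subtracted, Ngp had an r of 0.54 with Camp, 0.40 with Csf3r and 0.35 with Cxcr2. On the same scale S100a9 followed Csf3r (0.88) and Cxcr2 (0.84), so within groups the mice with more calprotectin message also had more receptor message.

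Within the gavage compounds TAA stood above ANIT and MDA, less clearly above APAP. In the fit of all groups TAA was higher than ANIT in 9 of 10 members (12.5% of all genes) and higher than MDA in 9 (13.9%), with Camp the exception in each. The Ltf call over ANIT was lost without ANIT mouse 2 (5.07), 3 (5.13) or 4 (5.09) or TAA mouse 7 (4.06), and the Mmp9 call over MDA without MDA mouse 2 (1.89) or 4 (1.92) or TAA mouse 7 (1.59). Against APAP it was higher in 2, S100a9 (2.37 ± 0.78, adjusted p = 0.042) and Cxcr2 (2.63 ± 0.81, adjusted p = 0.028), beside 4.64% of all genes. Both calls were lost when the 2 groups were fitted alone, without TAA mouse 7 (1.82 and 1.98) and without APAP mouse 2 (2.13 and 2.43), 4 (2.14 and 2.41) or 6 (2.14 and 2.43), and the S100a9 call also without APAP mouse 1 (2.22) or TAA mouse 6 (2.37) or 8 (2.46). Both were lost under library-total scaling too, where 2.39% of all genes were called higher. Without APAP mouse 8 the count was 4 (4.53%), with Csf3r (1.87, adjusted p = 0.045) and Mmp8 (2.58, adjusted p = 0.049) added. APAP was higher than ANIT in Retnlg (2.22 ± 0.80, adjusted p = 0.047) and Csf3r (1.83 ± 0.67, adjusted p = 0.0498), beside 9.79% of all genes. Both were lost in the fit of 2 groups and without ANIT mouse 2 (1.95 and 1.76), 3 (2.29 and 1.93) or 4 (2.06 and 1.73) or APAP mouse 8 (1.84 and 1.63) or 11 (1.60 and 1.43), and the Csf3r call also without ANIT mouse 1 (1.93). MDA was lower than APAP in Retnlg (-1.83 ± 0.64), Ngp (-3.01 ± 0.88) and Ltf (-6.37 ± 1.68), 3 members beside 9.8% of all genes. In the fit of 2 groups Retnlg was not called (-1.90) and the other two were too low to test. The Ltf call was lost without APAP mouse 4 (-3.71), and the Retnlg call without APAP mouse 8 (-1.46) or 11 (-1.22) or MDA mouse 1 (-1.64), 2 (-1.71), 3 (-1.78), 4 (-1.77) or 8 (-1.76). Between MDA and ANIT, and between GAL and CCl4, edgeR and DESeq2 called 0 members. At an unadjusted p under 0.05 there was 1 in the first pair, Csf3r, and 2 in the second, Ngp and Camp. The percentages of all genes called there were 0.24 and 28.6. CCl4 mouse 11 held 1.74 CPM of Ngp and 1.71 CPM of Camp, where the CCl4 medians were 0.0386 and 0.

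The APAP and MDA groups were uneven. S100a8 stood at 67.9 and 91.6 CPM in APAP mice 8 and 11, and at 3.18 to 19.2 CPM in the other 4. The same 2 mice were highest of the group in S100a9, Retnlg, Mmp8, Mmp9, Cxcr2 and Csf3r. In the MDA group mice 7 and 12 held 41.0 and 38.6 CPM of S100a8 and the other 5 held 2.07 to 10.9. These 2 were highest in S100a9, Retnlg, Mmp8, Mmp9, Cxcr2 and Csf3r as well, but their Ngp was 0.127 and 0.0407 CPM. Without APAP mouse 11 the S100a8 call against the gavage vehicle was lost (2.30), and the Csf3r call against all vehicle mice, 1.15 ± 0.44 (adjusted p = 0.048), was lost without APAP mouse 1 (1.24), 8 (0.93) or 11 (0.75). The S100a8 call after MDA against all vehicle mice, 2.21 ± 0.75 (adjusted p = 0.024), was lost without mouse 7 (1.79) or 12 (1.83).

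The gavage controls were uneven as well. S100a8 stood at 14.5 and 21.4 CPM in vehicle mice 17 and 18 and at 0 to 5.46 CPM in the other 11. A list of 10 neutrophil markers, the members without Mmp9 and with Ly6g, summed to 2.11 to 3.75 CPM in vehicle mice 1 to 4, 3.43 to 16.5 in mice 7 to 12 and 9.84 to 62.4 in mice 15 to 18. Ly6g, the defining surface marker of mouse neutrophils, was at 0 in all 17 vehicle mice. In vehicle mice 15 to 18 the sum is made of S100a8, S100a9 and Csf3r for the most part, with Ngp at 0 in all 4. With these 4 mice left out, a choice made after seeing the data, the members called higher against the gavage vehicle were 3 for ANIT in place of 1, 5 for APAP in place of 3, and 4 for MDA in place of 2. The shares of all genes called higher were then 14.6%, 16.2% and 16.2%, beside 14.0%, 17.3% and 17.4% with all 13 mice.

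Erythroid markers were high in the TAA and ConA mice. The summed level of 4 markers (Hbb-bs, Hba-a1, Hba-a2 and Alas2), which report red cells and their precursors, was 89.2 to 340 CPM over the vehicle mice, 2630 to 4828 CPM after TAA and 1123 to 6287 CPM after ConA. APAP mice 8 and 11 held 2091 and 1222 CPM and the other 4 held 116 to 405. MDA mice stayed between 60.8 and 242 CPM, mice 7 and 12 included, CCl4 mice between 71.0 and 425 CPM and GAL mice between 92.7 and 177 CPM. Of the 4 markers, all tested, 3 rose and 1 fell after TAA and after APAP against the gavage vehicle, and 3 rose after ConA against intravenous saline, beside 26.4%, 17.3% and 16.8% of all genes called higher. No marker was at 0 in every mouse of a group. The TAA and ConA ranges of this sum overlap, while those of Ngp, Mmp8, Cxcr2 and Csf3r do not. Platelet markers (4) summed to 11.8 to 31.3 CPM after TAA, 8.83 to 33.7 CPM after APAP, 5.35 to 15.3 CPM after ConA and 2.00 to 11.3 CPM in the vehicle mice. B cell markers (5) summed to 11.6 to 20.3 CPM after TAA, above the 4.66 to 11.3 CPM of the vehicle mice, and to 5.79 to 10.5 CPM after ConA. Of the 4 B cell markers tested TAA raised 4, and of the 3 platelet markers tested it raised 2, beside 26.4% of all genes. How far blood left in the tissue adds to the member levels was not tested.

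**Figure D5:**
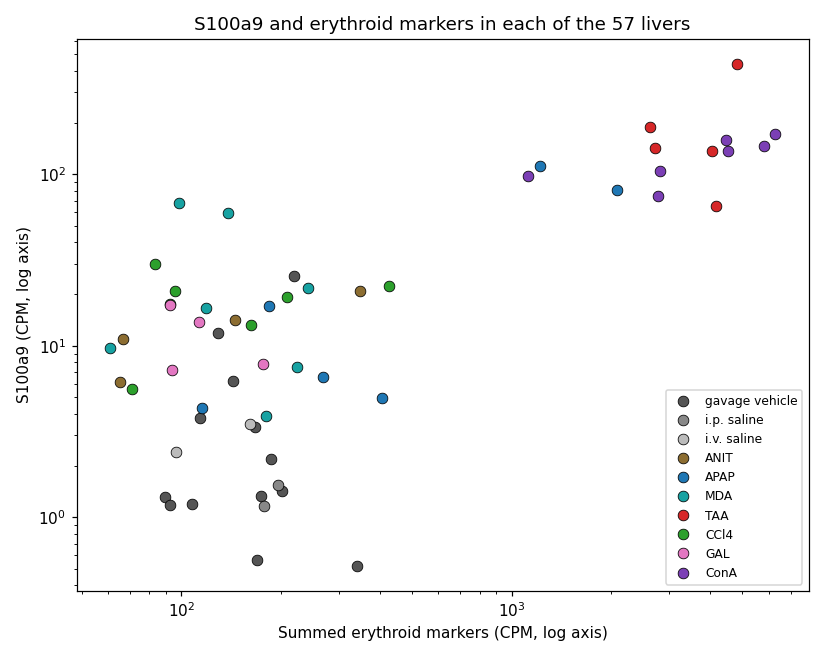
S100a9 in CPM against the summed level of 4 erythroid markers in CPM, both on log axes, 1 point per mouse. TAA and ConA mice lie at the top right together with APAP mice 8 and 11, and MDA mice reach 68.0 CPM of S100a9 at erythroid sums of at most 242 CPM.

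Genes of the same programme outside the set were described by lists. Their names in the text are the called genes with the largest changes, at most 4 a list. As for the members, the number tested in a list depends on the treated level, so the counts are a description. Among 14 further genes of the mature neutrophil surface, TAA raised 10 of the 11 tested against the gavage vehicle (26.4% of all genes). The median log2 change was 3.22 beside 0.03 over all genes. Largest were Ly6g, at 0.596 to 0.910 CPM after TAA and 0 in every vehicle mouse, the decoy interleukin-1 receptor gene Il1r2 (5.43 ± 0.86), Trem1 (4.67 ± 0.69) and Clec4e (4.37 ± 0.78). ConA raised 8 of 11 against intravenous saline (16.8% of all genes), with a median of 3.24 beside 0.03. It lowered Fpr1, a formyl peptide receptor (-4.36 ± 0.60, adjusted p = 5.4e-04). Fpr1 ranged from 1.65 to 5.98 CPM over the vehicle mice and from 0 to 0.285 CPM after ConA, with no overlap. Between ConA and TAA, 3 of the 13 tested were lower after ConA, beside 16.7% of all genes, Fpr1 most (-3.92 ± 0.49). APAP and MDA each raised 6 of 8 tested against the gavage vehicle (17.3% and 17.4% of all genes) and ANIT 2 of 8 (14.0%). Against intraperitoneal saline CCl4 raised 4 of 11 (18.0%) and GAL 5 of 10 (12.8%).

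Most azurophil granule genes, the first to be made in the marrow, were near the limit of detection. Of 7 listed genes 6 are in the table, and 1 or 2 passed the filter in each vehicle comparison. Prtn3, the gene for proteinase 3, was above 0 in every mouse, at medians of 0.590 CPM over the vehicle mice, 12.4 after APAP, 5.88 after ANIT, 4.89 after CCl4, 2.95 after TAA, 1.46 after MDA, 0.890 after ConA and 0.308 after GAL. Against the route vehicle it rose after APAP (3.74 ± 0.59, adjusted p = 8.7e-05), CCl4 (3.21 ± 0.80, adjusted p = 0.013), ANIT (2.63 ± 0.60, adjusted p = 0.0033) and TAA (1.67 ± 0.53, adjusted p = 0.014). It was not called after ConA (1.09 ± 0.72, adjusted p = 0.27), nor for ConA over TAA (-1.10 ± 0.62, adjusted p = 0.18). Mpo, myeloperoxidase, ranged from 0.130 to 2.62 CPM (median 0.388) after ConA, from 0 to 0.0235 CPM after TAA and from 0 to 0.308 CPM over the vehicle mice. These ConA and TAA ranges do not overlap. The vehicle range overlaps both. The log2 difference of ConA over TAA was 7.29 ± 1.62 (adjusted p = 5.4e-04), a fitted value that depends on the prior count since Mpo was at 0 in 3 of 5 TAA mice.

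A further list held 9 genes tied to the specific and gelatinase granules, not all of which encode granule proteins. TAA raised 5 of 6 tested against the gavage vehicle (26.4% of all genes), with a median of 2.81 beside 0.03. ConA raised 5 of 6 against intravenous saline (16.8% of all genes), with a median of 3.46 beside 0.03. Lcn2, lipocalin 2, which injured hepatocytes also make, changed most: 3.99 ± 0.74 after TAA and 7.84 ± 0.41 after ConA. It fell after GAL against intraperitoneal saline (-2.19 ± 0.62, adjusted p = 0.041). Cd177, a surface protein of specific granules, rose after ConA (3.64 ± 0.64, adjusted p = 0.0019).

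Chemokines and growth factors that recruit or mobilise neutrophils were next. Of 16 listed signals ConA raised 11 of 14 tested against intravenous saline (16.8% of all genes), with a median of 5.33 beside 0.03. TAA raised 10 of 11 against the gavage vehicle (26.4% of all genes), with a median of 3.30 beside 0.03. The number tested depends on the treated level here too. Csf3, the gene for G-CSF and ligand of Csf3r, ranged from 21.9 to 61.9 CPM (median 46.7) after ConA and from 0.664 to 10.9 CPM (median 1.71) after TAA, and was at 0 in 15 of 17 vehicle mice. Those ranges do not overlap, and ConA was higher by a log2 value of 3.63 ± 1.11 (adjusted p = 0.012). Cxcl2, a ligand of Cxcr2, ranged from 271 to 717 CPM after ConA, from 10.5 to 202 after TAA and from 0 to 4.09 over the vehicle mice. APAP mouse by mouse, Csf3 ran from 0 to 141 CPM and Cxcl2 from 0.145 to 915 CPM. Cxcl12, the marrow retention chemokine, was picked out after its values were seen. It fell in 6 of the 7 compounds against their route vehicle, by 1.58 ± 0.12 after TAA and 1.02 ± 0.22 after ConA, and was not called after ANIT (-0.31 ± 0.12, adjusted p = 0.071).

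Among 11 receptors, inhibitors and transcription factors tied to the members, 3 are described across compounds, a choice made after their values were seen. Cebpe, a C/EBP factor of granule gene transcription in the marrow, fell in all 7 compounds against their route vehicle, from -1.01 ± 0.26 after MDA to -3.19 ± 0.91 after ConA. It stood at 2.25 to 6.93 CPM over the vehicle mice, where Ngp was at 0 or near it, and at 0 to 1.11 CPM in the ConA mice with the highest Ngp. Timp1, the inhibitor of Mmp9, rose after ConA (5.49 ± 0.55), CCl4 (4.09 ± 0.66), APAP (3.92 ± 0.66), GAL (3.08 ± 0.60) and TAA (2.75 ± 0.69). Cd14, a coreceptor for calprotectin's receptor Tlr4, rose after ConA (6.61 ± 0.53), APAP (3.67 ± 0.75), CCl4 (3.14 ± 0.27), TAA (2.43 ± 0.52) and MDA (1.94 ± 0.53).

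The genes whose levels ran most like the members over the 57 mice were found by Pearson's r of log2 levels, with genes averaging under 1 CPM left out. Among those closest to the mean of all 10 members were Slc16a3 (0.93, and 0.77 with group means subtracted), Il1r2 (0.92) and Thbs1 (0.91). Closest to the granule mean was AA467197 (0.95, and 0.47 with group means subtracted), at a median of 21.7 CPM after ConA, 1.07 after TAA and 0 in the vehicle mice. Closest to the surface mean were Ncf4 (0.83, and 0.81 with group means subtracted), Alox5ap (0.81) and Coro1a (0.78). Ncf4, a subunit of the phagocyte oxidase, had medians of 7.76 CPM after TAA, 1.06 after ConA and 2.79 in the vehicle mice.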

How the data were processed

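Bulk RNA-seq of 57 mouse livers was used as the deposited table of estimated counts per gene, 1 column per mouse, all 57 matched to a sample by its label (0 columns unused). Per the submitters' processing notes, Salmon 1.6.0, R 4.1.3 and the build GRCm39 were used by the authors. Their roles and the annotation are not given in the sources used here. Per the labels' protocols, libraries were stranded, poly(A)-selected and read from a single end. The deposited estimated counts look scaled by gene length: over 4208 genes with 1 transcript, the smallest value above 0 and the transcript length had a Spearman's rho of -0.944, a description across genes. For that reason no counting interval is given. Library totals had a median of 21532116, mitochondrial genes took 5.11% to 39.3% of a library, and 0 pairs of columns were identical. IDs were paired with symbols through the reference gene table for 51482 IDs, 2825 had none.

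Estimated counts were rounded to whole numbers and tested with edgeR 4.0.16 (limma 3.58.1, R 4.3.3), quasi-likelihood, two-sided, with TMM scaling and the tool's own filter on low counts. Vehicle comparisons were fitted on the 2 groups alone, comparisons between compounds in 1 fit of all 10 groups, with Benjamini-Hochberg adjustment over all genes and a threshold of 0.05. The script was tested on simulated data. SE is the log2 fold change divided by the root of F. CPM uses unrounded values. The rule for named genes covers all 10 members in every comparison, with those not called given by count in some. Of other lists the called genes with the largest change are named, at most 4 a list. Some genes are not reported here. The members and lists were chosen with earlier results of these data known, and the comparisons of ConA with other compounds were added after the values were seen. Alternatives were library-total scaling, no filter, DESeq2 1.42.0, the replicate number as a block, a covariate for the range the replicate number falls in (1 to 4 or above), other pseudocounts and leaving out mice. Replicate numbers are shared between groups, but in no gavage compound did every same-numbered pair deviate together with a correlation over 0.1 (TAA 3 of 4 pairs, 0.00740 to 0.274; APAP 1 of 4; ANIT 0 of 4; MDA 0 of 7), and the labels do not tie a number to a day or litter.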

Additional observations from a re-analysis of the deposited data

Results flagged for a closer look

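Of 69 sets of values checked, a member in a group of 4 to 7 treated mice, 8 had 1 mouse whose distance from its nearest neighbour took up most of the group's range. For normally spread values chance gives this in about 1 in 20 sets, a rate that does not apply where all other mice are at 0. CCl4 mouse 11 stood apart in Ngp at 1.74 CPM and in Camp at 1.71 CPM, while the next mouse held 0.0614 and 0.0658. Ltf stood apart in APAP mouse 4 at 5.18 CPM, in ANIT mouse 1 at 0.126 CPM and in MDA mouse 12 at 0.0490 CPM, the latter pair in groups where all other mice were at 0. Camp stood apart in GAL mouse 4 at 0.0731 CPM, with the 3 others at 0. Mmp9 was low in CCl4 mouse 8 at 0.405 CPM and high in GAL mouse 2 at 7.48 CPM.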

How the results depend on the processing

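No member changed direction between settings where it was called. Among 2112 recomputed values, 9 changed sign, all uncalled in both fits. Counts below are members called, against those in the report. Library-total scaling gave 0 for ANIT against either control, 7 for GAL against all vehicle mice, 1 lower for ConA against intravenous saline, 0 for TAA over APAP, 4 for ConA against MDA and 2 for the ConA effect minus the TAA effect. Without a filter the counts were 2 for ANIT against all vehicle mice, 5 for APAP, 0 for APAP over ANIT and 1 for TAA over APAP. DESeq2 gave 1 for GAL against all vehicle mice and 4 for APAP over ANIT. The fit of 2 groups alone gave 0 for APAP over ANIT, MDA under APAP and TAA over APAP. With a covariate for the range that the replicate number falls in, the count was 5 for GAL against all vehicle mice and 0 for APAP over ANIT. With gavage mice 15 to 18 left out it was 3 for ANIT against either control, 5 for APAP, 4 for MDA, and against all vehicle mice 5 each for MDA, CCl4 and GAL.

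The replicate numbers did not meet the rule for pairing, with every pair over 0.1, though 3 of 4 TAA pairs did. With the replicate number as a block the counts were 2 for ANIT against the gavage vehicle and 3 against all vehicle mice, 1 for APAP, 4 for MDA, 6 for GAL against all vehicle mice, 0 for APAP over ANIT, 1 for MDA under APAP, 4 for TAA over APAP and 2 for the ConA effect minus the TAA effect. Csf3r was then not called lower after ConA against all vehicle mice (count 0, log2 value -0.39). No paired analysis was possible for CCl4 and ConA against their saline mice because they share 1 number each.

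Leaving out 1 mouse at a time covered the treated mice, and the saline mice in comparisons with their own route. No gavage vehicle mouse was left out singly, so these ranges do not cover the spread of those controls. The counts are a description, and most shares of all genes in these fits are not reported here. Against either control the count was 0 to 1 for ANIT and 8 to 9 for TAA. For APAP it was 2 to 3 against the gavage vehicle and 3 to 5 against all vehicle mice. For CCl4 it was 2 to 4 against saline and 2 to 3 against all vehicle mice. Likewise it was 1 to 5 and 1 to 2 for GAL, and 5 to 7 and 6 to 7 for ConA. Between compounds it was 0 to 3 for APAP over ANIT, 0 to 4 for TAA over APAP and 5 to 5 for ConA against TAA. For GAL over CCl4 it was 0 to 1 (1 without GAL mouse 4 or CCl4 mouse 12).

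The median granule minus surface difference with a pseudocount of 0.1 CPM in place of 1 was -2.09 in vehicle mice, -2.09 for ANIT, -1.79 for APAP, -2.33 for MDA, -3.10 for TAA, -2.66 for CCl4, -3.03 for GAL and 2.89 for ConA. It was -1.73 for GAL under library-total scaling, and -2.47 for TAA and 2.38 for ConA without Mmp8. The cause of these changes was not tested. The saline groups of 2 mice and the levels of Ngp, Camp, Ltf, Mmp8 and Cxcr2 near 0 in most groups limit the precision.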
